A study of Drosophila melanogaster with 2 samples.

Results

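The genes described here code for cuticular proteins, the structural proteins that assemble with chitin into the exoskeleton. They are the genes of the Drosophila melanogaster annotation whose symbols begin with Cpr and a digit, Twdl, Ccp84, Lcp and a digit, Edg and a digit, or Acp65. The rule found 124 genes. Of these, 121 are protein-coding, out of 13945 protein-coding genes on the main chromosomes, and 3 are pseudogenes (Lcp1Psi, Lcp65APsi and TwdlU). The rule uses names and no measured value, although the group was picked with earlier results of these data known. It goes by current symbols, so it leaves out 3 protein-coding genes that match only by a RefSeq synonym: Tb (Tubby, synonym TwdlA, a Tweedle gene), and CG34461 and CG34462 (both Cpr66Ca). Genes for cuticle proteins with symbols of other forms, such as Pcp, are left out as well. Unless stated otherwise shares are over the 121 protein-coding genes.

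The study mapped where the protein of CG9948, an uncharacterized fly gene, is bound in the genome. ChIP-seq, the sequencing of DNA precipitated with a protein, was done with an antibody against GFP on whole pupae aged 24 h from 1 transgenic line that stably expresses CG9948 with GFP fused to its C terminus. Chromatin was sonicated to fragments of 200 to 800 bp. The 2 samples share line, tagged protein, antibody, stage and age, and are biological replicates 1 and 3 of a single group, so no comparison between conditions is possible. The labels give neither the sex of the animals nor the promoter and cells in which the transgene is active, and flies without the transgene were not analysed here. Whole animals mix all tissues, so binding in few cells and weak binding in many cells cannot be told apart.

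Peak lists of 30000 regions each were deposited for replicate 1, replicate 3 and the pooled reads of both. A further list of 7637 regions holds the peaks that the authors kept by IDR, the irreproducible discovery rate, a measure of how alike a peak ranks in the replicates. Presence in this list does not mean that each replicate list holds an overlapping peak, as described further on. A peak's summit is the base of highest signal within it. Peak signals were computed by the authors and their scale is not stated, so they are compared within 1 list only, beside its lowest value (150 in the IDR list, 31.0 in the pooled list, 16.3 in replicate 1 and 22.9 in replicate 3). Read depth is unknown, because the lists hold no read counts.

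Insect cuticle is laid down by a single layer of epidermal cells, and a fly makes a new one at each moult under control of the steroid hormone ecdysone. During metamorphosis a pupal cuticle is made first and the adult cuticle beneath it later. Cpr proteins carry the Rebers and Riddiford consensus, a chitin-binding sequence found across arthropods. Tweedle proteins (Twdl) form a separate family, named after the squat body shape of a mutant. Larval (Lcp), adult (Acp) and ecdysone-dependent (Edg) names record where the first genes were found, and the Ccp84 genes are the cuticle cluster within the Antennapedia complex. Most of these genes are short and lie in tandem clusters.

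The sequences at the IDR peaks nearest to a transcription start site (TSS) of a cuticular protein gene varied in their content of A and T. The 3 peaks within 500 bp of a TSS were those of Cpr72Ea, Cpr12A and Cpr97Ea, and Cpr72Eb was the nearest gene outside that distance. Each line below gives the 101 bases centred on the summit, 5′ to 3′ on the strand of the gene, with runs of at least 6 bases that are all A or T in capitals. They come from the RefSeq release 6 genome (dm6), at chr3L:16362288-16362388 on the plus strand (Cpr72Ea), chrX:13543335-13543435 on the plus strand (Cpr12A), chr3R:27088222-27088322 on the minus strand (Cpr97Ea) and chr3L:16364310-16364410 on the plus strand (Cpr72Eb).
Cpr72Ea: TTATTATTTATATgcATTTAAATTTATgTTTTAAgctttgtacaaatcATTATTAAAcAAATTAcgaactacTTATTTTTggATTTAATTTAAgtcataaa
Cpr12A: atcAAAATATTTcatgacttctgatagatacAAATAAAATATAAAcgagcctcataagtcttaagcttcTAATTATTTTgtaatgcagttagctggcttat
Cpr97Ea: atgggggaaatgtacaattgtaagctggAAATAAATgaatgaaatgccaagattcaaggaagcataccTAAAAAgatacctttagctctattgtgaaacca
Cpr72Eb: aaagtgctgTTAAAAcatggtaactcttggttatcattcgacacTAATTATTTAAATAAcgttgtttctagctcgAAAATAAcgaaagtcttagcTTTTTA
The runs take up 65 of the 101 bases at Cpr72Ea, 33 at Cpr12A, 14 at Cpr97Ea and 34 at Cpr72Eb. A + T made up 83.2%, 72.3%, 65.3% and 70.3% of the windows in that order, which is 18.8, 22.3, 15.3 and 12.4 percentage points above flanks centred 200 bp to either side. All 4 summits were thus higher in A + T than their flanks. The mean over all 7637 IDR summits was 69.8%, so the window of Cpr97Ea was below it. Windows farther from a TSS, described further on, held 73.3% at Cpr64Aa, 59.4% at Cpr62Ba and 56.4% at Cpr65Ea, where the difference from the flanks was -7.43 points. None of the 4 windows printed holds the motif CACTG on either strand, and that of Cpr65Ea holds it once.

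Core promoters of cuticular protein genes often hold a TATA box. The lines below run from 45 bp upstream to 14 bp downstream of the outermost annotated TSS of TwdlM (a Tweedle gene, chr3R:26619073-26619132, plus strand), Ccp84Ag (chr3R:6686683-6686742, plus strand) and Acp65Aa (an adult cuticle gene, chr3L:6152731-6152790, minus strand), from the same genome. Capitals mark the TATA box letters TATAA, searched for on the gene's strand from 45 to 15 bp upstream, and the initiator letters TCAGT, searched for within 10 bp of the TSS. The first 3 have no IDR promoter peak, and Ccp84Ag was chosen after its sequence was seen. Cpr97Ea (chr3R:27087764-27087823, minus strand) is shown as a gene with neither motif. It has an IDR promoter peak, as do Cpr72Ea and Cpr12A, which have the TATA letters.
TwdlM: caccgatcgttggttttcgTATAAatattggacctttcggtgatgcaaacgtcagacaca
Ccp84Ag: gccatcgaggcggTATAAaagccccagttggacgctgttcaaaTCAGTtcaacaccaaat
Acp65Aa: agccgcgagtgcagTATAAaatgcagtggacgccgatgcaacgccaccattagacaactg
Cpr97Ea: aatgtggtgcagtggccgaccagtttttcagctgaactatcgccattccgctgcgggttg
The TATA box begins 26 bp upstream of the TSS in TwdlM, 32 bp upstream in Ccp84Ag and 31 bp upstream in Acp65Aa. How many of the other genes share it is given further on.

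Few cuticular protein genes had a peak at their promoter, taken as the bases within 500 bp of any annotated TSS of the gene. In the IDR list 3 of 121 had a summit there (2.48%, 95% Wilson interval 0.847 to 7.04), against 18.0% of all protein-coding genes. In the pooled list 9 of 121 did (7.44%, 3.96 to 13.5), against 41.8% of all. The replicate lists differed: replicate 3 held a promoter summit at 9 genes (7.44%) against 45.8% of all, and replicate 1 at 21 (17.4%, 11.6 to 25.1) against 31.2%. A summit in both replicate lists was found at 5 genes (4.13%, 1.78 to 9.31), against 22.7% of all. In each of these counts the interval of the cuticular protein genes lies below the share of all genes. Intervals cover counting error over genes only, and since neighbouring genes can share surroundings, the genes are not independent. No test was run on the list.

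**Figure D1:**
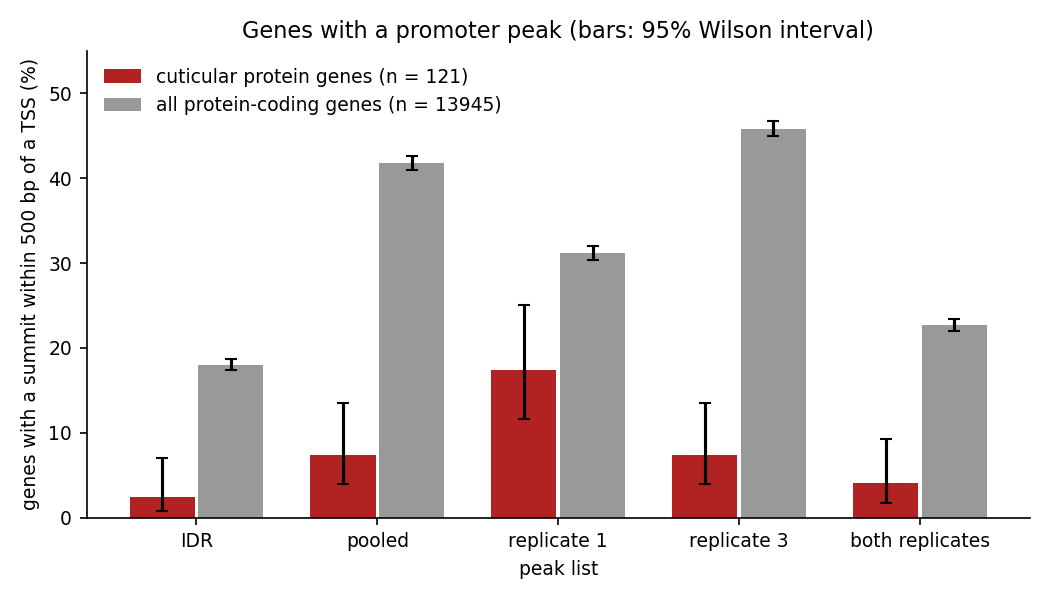
Percentage of genes with a summit within 500 bp of a TSS (vertical axis) in the IDR, pooled, replicate 1, replicate 3 and both-replicate sets (horizontal axis), for 121 cuticular protein genes and all 13945 protein-coding genes, with 95% Wilson intervals as error bars. Every cuticular bar lies below its neighbour, and the gap is narrowest in replicate 1 (17.4% against 31.2%).

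The counts depend on the window and on the number of peaks taken. Within 250 bp of a TSS no cuticular protein gene had an IDR summit, against 13.3% of all genes, and within 1000 bp 8 did (6.61%), against 21.8%. Among the 3818 strongest IDR peaks the count was 1, that of Cpr72Ea. When the IDR list was replaced by the 7637 strongest peaks of 1 replicate, the count was 3 in replicate 1 and 2 in replicate 3. Under all of these settings the share of cuticular protein genes stayed below that of all genes.

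Cpr72Ea (3L:16362603 to 16363750, plus strand) had the strongest of the 3 IDR promoter peaks. The peak spans 3L:16362245 to 16362506, with its summit 265 bp upstream of the TSS, a signal of 506 and rank 2073 of 7637. In replicate 1 the signal was 121 (rank 3033 of 30000) at 304 bp, and in replicate 3 it was 380 (rank 1800 of 30000) at 277 bp. Both replicates thus placed it upstream of the gene and among their stronger peaks.

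Cpr12A (X:13543643 to 13544907, plus strand) had a peak with its summit 258 bp upstream of the TSS and a signal of 223, rank 5343 in the IDR list. Its signals were 63.7 in replicate 1 and 152 in replicate 3, with summits 6 and 9 bp from the IDR summit. A further IDR peak lay 960 bp upstream (signal 151, near the list's lowest value of 150), with 66.7 in replicate 1 and 98.5 in replicate 3. Cpr12A is the only gene of the set with a pair of IDR peaks within 1000 bp.

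Cpr97Ea (3R:27083130 to 27087778, minus strand) lay at the edge of the window, with its summit 494 bp upstream of the TSS and a signal of 177 (rank 6593). The peak was present in both replicates, with 74.2 in replicate 1 and 111 in replicate 3, but the summit of replicate 3 lay 555 bp from the TSS and so outside the window. Replicate 3 counted at this gene through another peak, 361 bp upstream of a TSS further into the gene, with a signal of 27.2 near that list's lowest value. All 3 IDR promoter summits lay upstream of their genes.

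Cpr51A and Edg91 had promoter summits in both replicate lists without an IDR summit there. At Cpr51A, on chromosome arm 2R, the summit lay downstream of the TSS in all 3 lists (pooled signal 73.7 at 186 bp, replicate 1 20.4 at 237 bp, replicate 3 26.9 at 183 bp). Edg91, a gene for a glycine-rich cuticle protein, had a pooled peak 475 bp upstream (77.0) and another 139 bp downstream of a TSS (48.2). Its replicate signals were 17.5 upstream in replicate 1, and 64.1 upstream and 25.1 downstream in replicate 3. Signals in at least 1 replicate were thus close to the lowest value of the list at both genes.

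A further 4 genes had a pooled promoter peak, and that of 3 of them was below the list's median signal. Cpr67Fa1 had pooled signals of 77.9 and 34.1 at 474 and 247 bp upstream, and signals of 79.7 and 39.0 in replicate 3. It had no promoter peak in replicate 1. Cpr67B (44.7 at 247 bp upstream) had no promoter summit in either replicate list. At Acp65Aa the pooled summit lay 342 bp upstream (34.6), whereas that of replicate 1 lay 270 bp downstream (23.0). At Cpr100A it lay 334 bp upstream (31.6, next to the list's lowest value of 31.0), with 33.6 at 477 bp in replicate 3. The median signal of all pooled peaks was 68.6, so among these 4 genes Cpr67Fa1 alone had a peak above it.

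Another 5 genes had their nearest IDR summit 500 to 1000 bp from a TSS. The strongest peak of all within 1000 bp of a cuticular protein gene lay 539 bp upstream of Cpr72Eb (signal 826, rank 995), with 279 in replicate 1 and 582 in replicate 3. Cpr72Eb is the neighbour of Cpr72Ea on the same strand, so both IDR peaks of this locus lie upstream of adjacent genes. Upstream summits were also found at Cpr64Aa (731 bp, signal 157), Cpr62Ba (843 bp from a TSS and within the gene, 351) and Cpr65Ea (889 bp, 253). At Cpr62Ba both replicates held the peak, with 117 and 247. No peak of replicate 3 overlapped that of Cpr64Aa or Cpr65Ea by at least 50% of the shorter peak, while replicate 1 had 57.0 and 69.4. A replicate 3 peak of 188 began at 7087522, just past the end of the IDR peak of Cpr65Ea at 7087514. Its summit lay 973 bp upstream of Cpr65Ea. At Cpr47Ec, on 2R, the summit lay 914 bp downstream of the TSS and past the gene's other end, with a signal of 156 in the IDR list, 42.7 in replicate 1 and no overlapping peak in replicate 3.

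Distances, which need no window, were long. The median cuticular protein gene lay 20.8 kb from the nearest IDR summit, with quartiles of 6.17 and 36.1 kb, against a median of 6.41 kb over all protein-coding genes. Over 20 kb from any IDR summit lay 62 of the 121 genes (51.2%), against 20.9% of all. The median distance was 10.2 kb in the pooled list against 1.35 kb for all genes, and 17.3 kb against 0.918 kb in replicate 3. In replicate 1 the median of cuticular protein genes, 1.83 kb, was close to the 1.59 kb of all genes. With the 7637 strongest peaks of each replicate, the median for cuticular protein genes was 22.8 kb in replicate 3 and 18.1 kb in replicate 1, so the replicates differed less without their weak peaks.

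**Figure D2:**
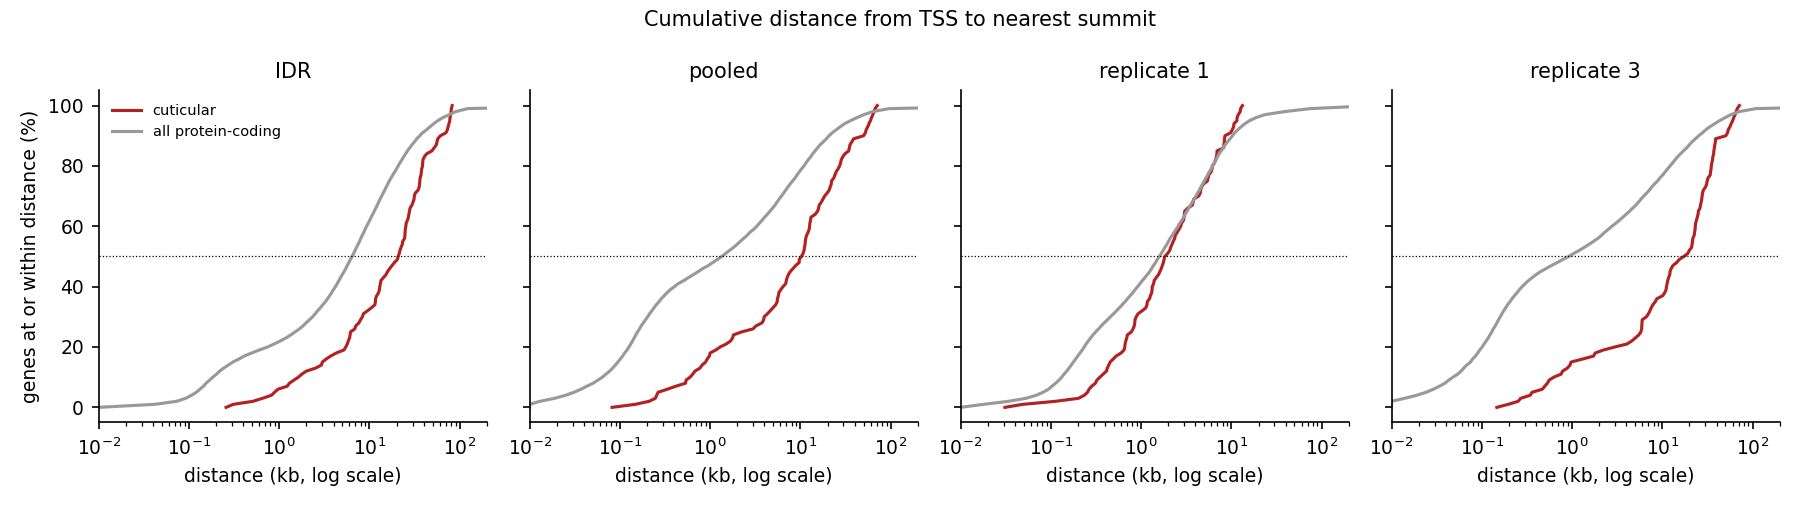
Percentage of genes (vertical axis) whose nearest summit lies at or within a given distance of a TSS (horizontal axis, kb, log scale), for 121 cuticular and all protein-coding genes, with 1 panel for each of the 4 lists. The curves lie apart in the IDR, pooled and replicate 3 lists (medians 20.8 against 6.41 kb, 10.2 against 1.35 kb and 17.3 against 0.918 kb). In replicate 1 the medians are close (1.83 against 1.59 kb), while the lower quartiles differ (0.781 against 0.314 kb).

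Distances varied between groups made by the first letters of the symbol. These groups go by name and were not taken as separate protein families. The 70 Cpr genes had a median of 11.6 kb to the nearest IDR summit and held all 3 IDR promoter peaks. The 25 Tweedle genes had a median of 35.7 kb, the 15 Lcp genes 29.2 kb and the 7 Ccp84 genes 27.8 kb, and none of these had a promoter summit in the IDR or pooled list. The 3 Edg genes had a median of 8.36 kb and the single Acp65 gene lay 21.3 kb away. The 6 Tweedle genes and 1 Lcp gene with a promoter summit in replicate 1 had none in the pooled list, and no Ccp84 gene had one in any list. Many genes lie side by side, so these medians reflect fewer separate loci than genes, although several Cpr genes lie alone. The 65A cluster holds Lcp, Cpr and Acp65 genes together, so the groups also share loci.

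**Figure D3:**
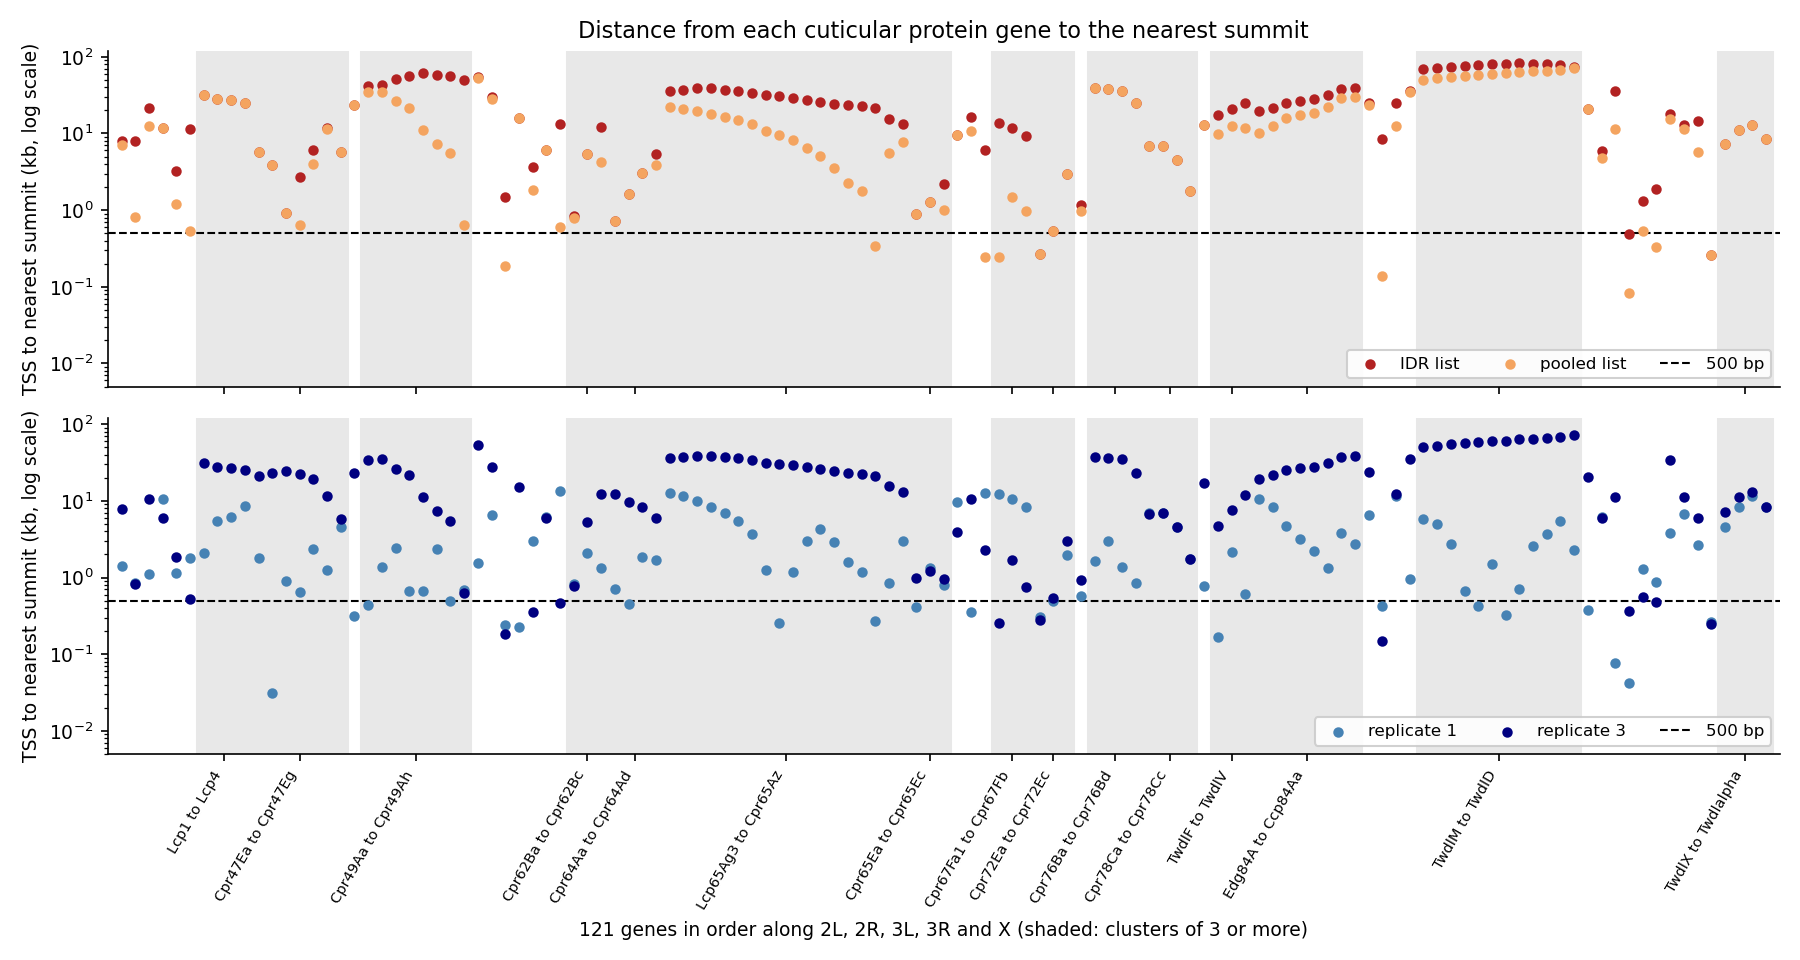
Distance from a TSS of each of the 121 cuticular protein genes to the nearest summit (vertical axes, kb, log scale), with genes in chromosomal order along the horizontal axis, shading for clusters of 3 or more (adjacent clusters share a band) and a dashed line at 500 bp. The IDR distances reach 82.5 kb in the Tweedle cluster on 3R, and the IDR points below the dashed line are those of Cpr72Ea, Cpr12A and Cpr97Ea.

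Clusters are the more independent unit. When genes within 20 kb of each other were chained, the 124 genes fell into 46 loci, of which 15 hold 3 or more genes, 91 in all, and cover 247 kb. A cluster was taken from the start of its first gene to the end of its last, so upstream bases beyond these ends were left out. The IDR promoter peak of Cpr72Ea thus lay outside its cluster. Within these 15 clusters lay 6 IDR summits, or 24.3 per Mb, against 57.0 per Mb over the chromosomes. The pooled list had 13 (52.7 per Mb) and replicate 3 had 11 (44.6 per Mb), each against 224 per Mb, whereas replicate 1 had 46 (187 per Mb against 224). No IDR summit lay inside 10 of the 15 clusters, and the other 5 were the Cpr47E, Cpr62B, Cpr64A, Cpr65E and Cpr72E clusters. Among the 3818 strongest IDR peaks 2 summits lay inside clusters (8.11 per Mb against 28.5).

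For 4 of the 15 clusters the nearest IDR summit lay at the promoter of a gene outside the set. Of all 7637 IDR peaks, 2057 lay at a promoter of such a gene, a share close to 4 of 15. From the Lcp1 to Lcp4 cluster the nearest IDR summit was 25.0 kb from Lcp4 and 134 bp from a TSS of the maltase gene Mal-A5, with a signal of 1574. From the Cpr49A cluster it was 41.4 kb from Cpr49Aa and 106 bp from CG8490 (400). From the 18 protein-coding genes of the 65A cluster it was 13.2 kb from Cpr65Az and 164 bp from fmt (282). From the protein-coding genes of the TwdlU to TwdlV cluster it was 17.6 kb from TwdlF and 133 bp from DhpD (337). The pseudogene TwdlU lay nearer to that summit.

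For 6 clusters the nearest IDR summit lay outside the cluster and over 500 bp from the TSS of any protein-coding gene, and 1.76 to 69.9 kb from a gene of the cluster. From Edg84A the nearest IDR summit was 19.5 kb away, within the Hox gene lab (172). It was 24.7 kb from Cpr76Bd and nearest to CG9300 (749), 9.40 kb from Cpr67Fb and nearest to Aps (371), 7.22 kb from TwdlX and nearest to CG34325 (203), and 1.76 kb from Cpr78Cc within CG11309 (164). From the cluster of TwdlM it was 69.9 kb away, within scrib, which codes for a cell polarity protein (166). No cuticular protein gene was thus the nearest gene to any of these 6 summits.

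The Tweedle cluster on 3R lay in one of the longest stretches without a peak. The 12 genes from TwdlM to TwdlD (3R:26619118 to 26641054), together with TwdlQ, lie between IDR summits 165 kb apart, at 26549173 and 26714375. This gap ranks 61 of 7631 between neighbouring IDR summits, whose median is 4.92 kb, and it holds 16 protein-coding genes of which 13 are Tweedle genes by symbol and another is Tb, a Tweedle gene by synonym. The pooled list leaves 145 kb without a summit here (rank 47 of 29994) and replicate 3 leaves 146 kb (rank 74 of 29994). Replicate 1 had 3 summits inside the cluster, with signals of at most 21.8, below that list's median of 25.0.

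The 5 genes farthest from any IDR summit were all in this cluster. TwdlN lay 82.5 kb away, TwdlJ 80.7, TwdlH 80.6, TwdlK 79.6 and TwdlR 79.5 kb. Their nearest pooled summits were 59.7 to 65.8 kb away and those of replicate 3 60.1 to 66.3 kb, whereas in replicate 1 TwdlJ had a summit 325 bp downstream of its TSS. The distances are nearly alike because the genes lie side by side.

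**Figure D4:**
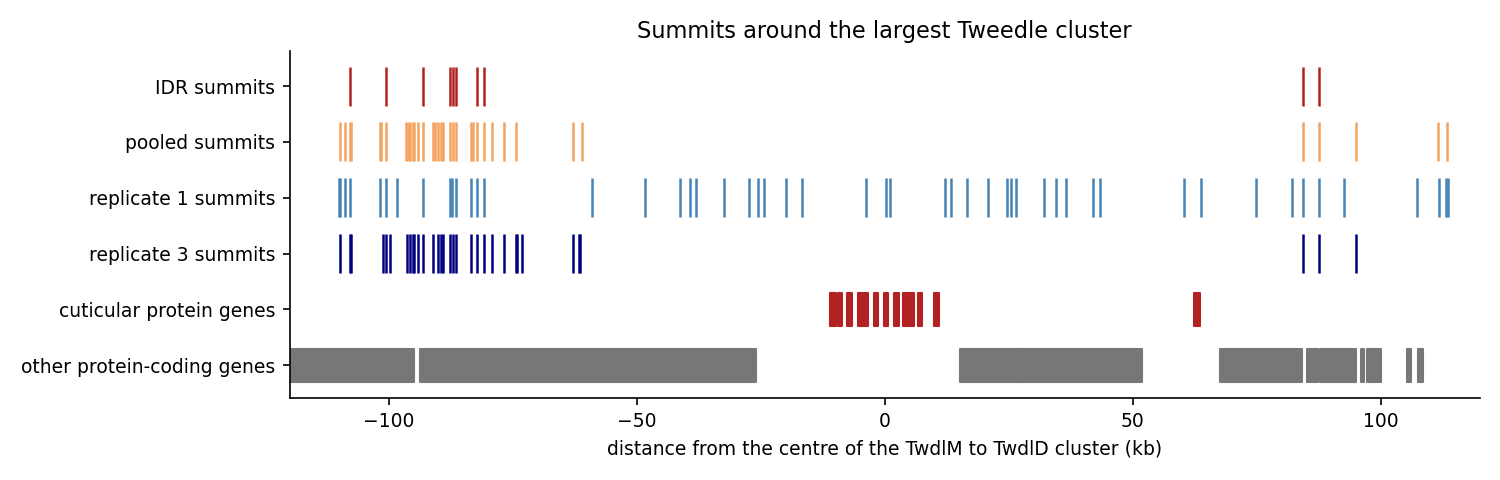
Summits of the 4 lists (vertical lines, upper rows) and protein-coding genes (bars, lower rows) by distance in kb from the centre of the TwdlM to TwdlD cluster (horizontal axis). No IDR, pooled or replicate 3 summit falls within the cluster, and the nearest IDR summits lie 165 kb apart on either side of it, while replicate 1 has 3 summits among the genes.

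Several other clusters lay in long gaps too. IDR summits were 128 kb apart around the Cpr49A cluster, 113 kb around Cpr76B, 109 kb around Lcp1 to Lcp4, 96.0 kb around Edg84A and the Ccp84 genes, 82.0 kb around TwdlU to TwdlV and 79.2 kb around the 65A cluster. Cuticular protein genes made up 18 of the 24 protein-coding genes in the gap around 65A and 8 of 13 in that around Ccp84, but 8 of 38 around Cpr49A. The long gaps thus also hold genes of other kinds. Around the clusters of Cpr67Fb, TwdlX and Cpr78Cc the IDR gaps were shorter, at 35.4, 27.3 and 16.4 kb. The Cpr49A cluster held summits in the other lists, 1 in the pooled list, 9 in replicate 1 and 1 in replicate 3.

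Genes near cuticular protein genes had few IDR promoter peaks as well. Among the 88 protein-coding genes outside the set that start at most 5 kb from one, 3 had an IDR promoter peak (3.41%, 1.17 to 9.55), and their median distance to an IDR summit was 9.55 kb. At 5 to 20 kb the share was 14.9% (36 of 242), at 20 to 50 kb 23.4% (90 of 385), and farther away 18.2% (2383 of 13109). The low IDR share was thus not confined to the cuticular protein genes in these regions. In the pooled list, however, 18 of the 88 genes within 5 kb had a promoter peak (20.5%). This is above the 7.44% of cuticular protein genes and below the 41.8% of all. The median distance of 9.55 kb was also shorter than the 20.8 kb of cuticular protein genes.

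Cuticular protein genes also differed from others in the spacing of their neighbours. A divergently transcribed protein-coding neighbour within 1000 bp was present at 13 of 121 (10.7%), against 36.2% of all genes, and for 8 of the 13 it was another cuticular protein gene. None of the 13 had an IDR promoter peak, whereas 30.8% of other genes with such a neighbour did. Without one, 3 of 108 cuticular protein genes had a peak (2.78%, 0.949 to 7.85) and 11.0% of 8785 other genes (10.3 to 11.6). The difference in share was thus present also among genes without a divergent neighbour.

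The promoter peaks of replicate 1 were mostly weak. A promoter summit in replicate 1 and not in replicate 3 was found at 16 cuticular protein genes (13.2%, 8.31 to 20.4), against 8.47% of all genes, a share inside the interval. With a 250 bp window the order turned, with 4.13% against 5.89%, and with 1000 bp the shares were 21.5% (15.1 to 29.6) and 12.6%. With 500 bp the reverse held at 4 (3.31%, 1.29 to 8.19), against 23.1%. The 4 were Cpr57A (39.1), Lcp9 (43.4), Cpr67Fa1 and Cpr100A, and the Lcp9 peak lies nearer to CG3594. The 22 promoter peaks of replicate 1 had a median signal of 20.3, from 17.0 at Cpr49Ag to 121 at Cpr72Ea, and 22.7% exceeded the list's median of 25.0, against 64.4% of promoter peaks at other genes. Apart from Cpr72Ea, Cpr97Ea and Cpr12A, the strongest was that of TwdlT (30.0).

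These weak peaks also lay on the other side of the TSS. Of the 22 summits of replicate 1, 15 were downstream (68.2%), as at TwdlT, TwdlJ, TwdlO, Cpr47Eb and Cpr66D, whereas at other genes 68.7% were upstream. Among peaks at or below the list's median, 13 of 17 were downstream at cuticular protein genes and 49.2% at other genes. Mean A + T within 50 bp of the 22 summits was 52.7% ± 13.3 (SD), against 60.8% over all peaks of replicate 1. Among peaks at or below the list's median it was 49.6% at the 17 summits, against 56.0% over all such peaks. In replicate 3 the 11 promoter peaks had a mean of 68.5% ± 14.4 (SD), against 61.9% over all its peaks. Whether the weak peaks of replicate 1 reflect binding of the tagged protein was not tested. The part of summit position in their A + T content was not tested either. TwdlT, TwdlJ, TwdlO, Cpr47Eb, Cpr66D, Cpr49Ag, Cpr73D and TwdlQ, and the 4 genes of lowest uniqueness given below, were named after their values were seen.

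Inside gene bodies, IDR summits were found at 4 of the 121 genes. This is 3.31% (1.29 to 8.19), against 13.8% of all protein-coding genes. Cpr73D had 2, and Cpr51A, Cpr62Ba and Cpr97Ea had 1 each. Per length of gene body this was 24.3 summits per Mb, against 50.8 over all protein-coding genes, with genes that overlap each counted. Cuticular protein genes are short, with a median length of 0.957 kb against 2.17 kb for all protein-coding genes, and 110 of the 121 have a single annotated TSS, against 73.5% of all. With the outermost TSS of each gene alone, 3 cuticular protein genes had an IDR promoter peak and 15.4% of all genes did. The part of length in the promoter counts was not tested.

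Repeated sequence touched few of the promoters. A 36-base word was called unique when it occurs once on either strand of the main chromosomes, and a promoter's uniqueness is the share of such words within 500 bp of the TSS. The read length of the libraries is not known from the sources used here. At least 90% was unique at 108 of the 121 genes (89.3%), against 96.0% of all genes. The lowest were Lcp65Ab1 and Lcp65Ab2 with 10.8%, Cpr65Ax1 with 27.2% and Cpr65Ax2 with 30.6%, near-identical copies in the 65A cluster, where read placement was not tested. Among genes with at least 90%, 3 of 108 cuticular protein genes had an IDR promoter peak (2.78%) and 18.7% of all. The region between the IDR summits around the TwdlM cluster was 94.6% unique, against 87.8% of the genome, and ranks 45 of 7222 among gaps of at least 90%.

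Base composition upstream of the TSS differed from that of other genes. From 250 to 50 bp upstream of the outermost TSS, A + T was 56.5% ± 7.25 (SD, n = 121 genes) at cuticular protein genes. It was 65.3% ± 8.71 at the other genes with an IDR promoter peak and 62.5% at other genes without one. Farther out, from 1000 to 500 bp upstream, cuticular protein genes had 59.3% against 56.5% over all genes. They were thus lower in A + T near the promoter and higher beyond it. In the first 250 bp of the transcript they had 51.7%, against 55.3% of all.

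**Figure D5:**
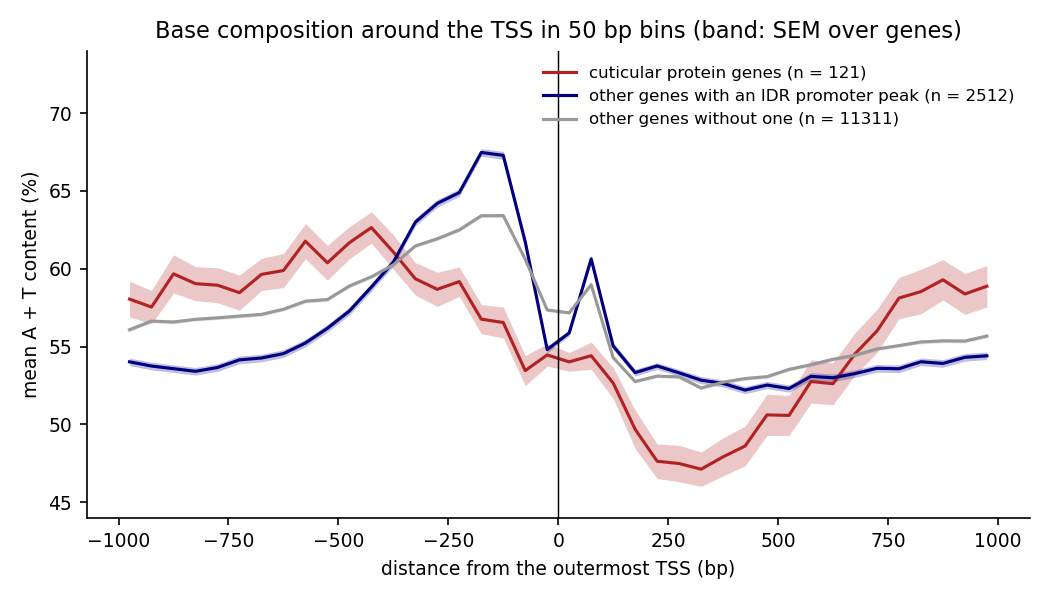
Mean A + T content (vertical axis, %) in 50 bp bins by distance from the outermost TSS (horizontal axis, bp) for 121 cuticular protein genes, other genes with an IDR promoter peak and other genes without one, with shading for the standard error. From 250 to 50 bp upstream cuticular protein genes average 56.5% and genes with a peak 65.3%.

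The TATA box was common among cuticular protein genes. It was present at 83 of 121 (68.6%, 59.9 to 76.2), against 12.4% of all protein-coding genes and 5.18% of the other genes with an IDR promoter peak. By first letters of the symbol it was found at 45 of 70 Cpr genes, 17 of 25 Tweedle genes and 11 of 15 Lcp genes. It was also found at 6 of 7 Ccp84 genes, all 3 Edg genes and Acp65Aa. In the TwdlM to TwdlD cluster 8 of 12 genes had it, and in that of Edg84A and the Ccp84 genes 7 of 8. Of the 3 genes with an IDR promoter peak, Cpr72Ea and Cpr12A had it, at the outer end of the window searched (44 and 45 bp upstream).

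Genes with a TATA box had IDR promoter peaks less often in the whole genome, 132 of 1735 (7.61%) against 19.5% of those without. For cuticular protein genes the shares were 2 of 83 (2.41%, 0.663 to 8.37) with the box and 1 of 38 (2.63%, 0.466 to 13.5) without. In the IDR list the interval for genes with the box includes the share of all genes with it, and that for genes without lies below. In the pooled list 8 of the 83 genes with the box had a promoter peak (9.64%, 4.97 to 17.9), against 21.3% of all genes with it, and in replicate 3 6 did (7.23%, 3.36 to 14.9), against 22.4%. In replicate 1 the shares were 22.9% (15.2 to 33.0) and 22.6%. Among genes with the box the interval thus lies below the share of all such genes in the pooled and replicate 3 lists, and includes it in the IDR and replicate 1 lists.

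Other promoter motifs were searched for on both strands from 250 bp upstream to 50 bp downstream of the outermost TSS. ATCGAT, the core of the DNA replication-related element of housekeeping promoters, was found at 8 cuticular protein genes (6.61%), against 23.3% of all genes. GTCACAC, the core of motif 1, also a housekeeping promoter element, was at 2 (1.65%) against 9.48%. CACTG was at 46 (38.0%) against 46.2%, GAGAG, a letter run bound by GAGA factor, at 37 (30.6%) against 29.7%, and the initiator letters TCAGT at 12.4% against 11.7%. AAGGTCA, a site of the nuclear receptor FTZ-F1, was at 1 gene (0.826%) against 2.11%. None of the searched letter runs contains another, though TCAGT and CACTG read on the opposite strand can overlap. A match is a description of the sequence only.

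Shares in 5 lists of other genes of the cuticle and its control ranged from 5.56% to 44.4%. Some of these genes code for cuticle proteins that the symbol rule leaves out. In a list of 11 genes for chitin synthesis and assembly 3 had an IDR promoter peak (27.3%): Gfat2 (signal 307) and mmy (303), enzymes of the pathway to UDP-N-acetylglucosamine, and Gnpnat (161), another of its enzymes. Replicate signals were 134 and 184 at Gfat2 and 31.5 and 143 at Gnpnat, and mmy had 186 in replicate 3. In replicate 1 the nearest summit to mmy lay 0.506 kb from a TSS, just outside the window, and the IDR summit 0.497 kb, just inside. The chitin synthase genes kkv and Chs2 had no IDR promoter peak. Of 23 genes for chitin modification and breakdown 5 did (21.7%), the strongest being the hexosaminidase gene Hexo2 (999), the chitinase genes Cht7 (508) and Cht11 (502) and Idgf2 (427), while the deacetylase genes serp and verm did not. These IDR shares have intervals that include the 18.0% of all genes (9.75 to 56.6 and 9.66 to 41.9). In the pooled list 9 of the 11 synthesis genes and 14 of the 23 modification genes had a promoter peak, against 41.8% of all genes, and in replicate 3 10 and 12 did, against 45.8%. In replicate 1 the counts were 6 and 7, against 31.2% of all genes, so the modification list was not above all genes there. Intervals were not computed for these pooled and replicate counts, and whether they exceed the shares of all genes was not tested.

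Tanning genes, whose products cross-link and colour the cuticle, had 2 IDR promoter peaks among 11 (18.2%, 5.14 to 47.7), near the 18.0% of all genes, at speck, which codes for a dopamine N-acetyltransferase (284), and Pu, which codes for GTP cyclohydrolase (240). The catecholamine enzyme genes ple and Ddc had none, although the pooled list held a promoter peak at Ddc (93.7). Other cuticle and apical matrix proteins had 1 of 18 (5.56%, 0.988 to 25.8, an interval that includes 18.0%), the zona pellucida domain gene tyn (535), and the pupal cuticle protein gene Pcp and the Tweedle gene Tb had none. Transcription factors of the ecdysone cascade and the epidermis had 8 of 18 (44.4%, 24.6 to 66.3). The strongest were those of grh, a factor of epidermal barrier genes (1087, replicates 417 and 673), Eip75B (891, 217 and 658), Hr78 (699, 226 and 494), both nuclear receptors, and the Ets factor gene Eip74EF (692, 59.2 and 374). The ecdysone-regulated factors br and ftz-f1 had no IDR promoter peak, although the pooled list held promoter peaks at both (91.5 and 31.7). The IDR interval of the transcription factor list lies above the 18.0% of all genes, and that of the cuticular protein genes below it. A gene counted when any of its TSSs had a summit nearby, so a gene with several TSSs could count at more places. Most cuticular protein genes have a single annotated TSS and are short, whereas the IDR summits of Eip75B and Eip74EF lay well inside long genes. The part of TSS number and gene length in this contrast was not tested.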

How the data were processed

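ChIP-seq peak lists were used as deposited, and samples were grouped by line, stage and age from the labels, which call them separate biological replicates. Per the deposited readme texts, the narrowPeak lists are on dm6, a replicate list was made from that replicate's alignments with a control, the pooled list from all alignments, and the IDR list from these 3. Which aligner and peak caller were used is not stated in the sources used here. The control library was not analysed here. Each deposited signal is the authors' value on an unstated scale. The deposited −log10 q-value was read but not used for any result. The deposited summit offset gave the summit position, and where it equalled the peak width (3, 7, 2 and 10 peaks of the IDR, pooled, replicate 1 and replicate 3 lists) the last base was taken. All 3 longer lists hold 30000 peaks, so their length does not measure enrichment.

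Genes and start sites were those of Ensembl release 115 (BDGP6.54), and bases were read from RefSeq's release 6 assembly. Coordinates are dm6, 1-based, on chromosomes 2L, 2R, 3L, 3R, X and 4. A gene had a promoter peak when a summit lay within 500 bp of any of its TSSs. Shares have 95% Wilson intervals. Clusters chain genes within 20 kb. The distance and window code was tested on simulated data. Promoter windows, TSS choice, peak thresholds, chaining distance and replicates were varied. Motif, uniqueness, neighbour and base composition measures were described without alternatives. Python 3.11.15, NumPy 2.4.6, pandas 2.3.3 and matplotlib 3.10.9 were used.

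The members, the gene lists and the measures were chosen with earlier results of these data known. Named are genes with IDR or both-replicate promoter peaks, up to 10 others with the strongest pooled promoter peaks, genes with an IDR summit at 500 to 1000 bp, the protein-coding gene nearest to an IDR summit in each cluster and the gene at that summit, the 5 farthest genes, and in each background list at most 4 genes that have the strongest peaks and 2 that have none. Genes named outside this rule are marked as such or given to account for a count of 5 or fewer.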

Additional observations from a re-analysis of the deposited data

How the results depend on the processing

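The number of cuticular protein genes with an IDR promoter peak, 3 as reported, was 0 with a 250 bp window, 8 with 1000 bp and 1 among the 3818 strongest peaks, and 2 to 3 without a replicate. The 5 genes with a promoter peak in both replicate lists became 1 with 250 bp, 13 with 1000 bp, 2 among the 15000 strongest peaks of each list, and 9 to 21 when 1 replicate list was used alone. The 9 genes in the pooled list became 5 with 250 bp and 22 with 1000 bp, and 6 among its 15000 strongest peaks. The 6 IDR summits inside clusters became 2 among the 3818 strongest peaks, 4 to 6 without a replicate, 6 with genes chained at 10 kb and 9 at 50 kb. Under each of these settings the share of cuticular protein genes, or the summits per Mb, stayed below the value of all genes or the genome, and the cause of these changes was not tested. The median distance to an IDR summit stayed between 18.1 and 27.4 kb. The outermost TSS alone, or each peak counted for its nearest gene only, left the IDR and pooled counts at 3 and 9 and the both-replicate count at 4 and 5. Adding the 3 genes that match by synonym, an alternative chosen after seeing the data, left the IDR, both-replicate and pooled counts at 3, 5 and 9 and the median distance at 20.7 kb. No paired analysis was possible because both samples belong to 1 group. Depth is unknown, so absence from a list is not absence of binding.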

Other observations

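The 3 pseudogenes of the set also lay away from IDR summits. The distance was 29.2 kb for Lcp1Psi, 25.7 kb for Lcp65APsi and 14.2 kb for TwdlU, and TwdlU had a replicate 1 summit 283 bp upstream of its annotated start (signal 18.3) that lies nearer to CG34305.

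The chemosensory receptor genes, the genes of smell and taste, had promoter peaks at few genes too. In the IDR list 2 of 179 had one (1.12%, 0.307 to 3.98), against 18.0% of all protein-coding genes. Shares were 6.70% in the pooled list, 7.82% in replicate 3 and 10.6% in replicate 1, against 41.8%, 45.8% and 31.2% of all. Low shares were thus not particular to cuticular protein genes. The ribosomal protein genes had 42 of 92 in the IDR list (45.7%, 35.9 to 55.8), above the 18.0% of all.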
